A study of Capra hircus with 8 samples.

Results

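The table listed 664 predicted miRNAs over 8 small RNA libraries of goat mammary gland cells, and 477 of them (71.8%) had reads in exactly 1 library. These 477 were chosen by that rule alone: the rows of an identifier were summed per library, each identifier having 1 row, and those with a count above 0 in exactly 1 of the 8 libraries were kept. A further 176 predicted miRNAs had reads in 2 to 7 libraries and 11 in all 8. The cells, labelled as mammary gland of the Lanshan dairy goat, were grown in 3D culture and fell into 4 groups of 2 libraries. Control cells were named 3NC or 5NC, and the treated cells either received cirRNA28250, a circular RNA, by virus (overexpression) or had cirRNA28250 inhibited (knockdown, columns named cKDmix). The series text names 5NC beside overexpression and 3NC beside knockdown without stating the pairing, and no further detail of the virus, of age or of separate cultures is given in the labels, so the spread within a group may be technical. Since the rule used the counts of all 8 libraries, what follows on counts is a description, with no test.

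MicroRNAs are short RNAs that are cut from hairpin-shaped precursors, first by Drosha in the nucleus and then by Dicer in the cytoplasm, and that guide Argonaute proteins to partly matching messenger RNAs. A miRNA is predicted from small RNA reads where reads stack at a genomic place whose surrounding sequence can fold into such a hairpin. A prediction is an annotation of a place in the genome, and whether the RNA is processed by Drosha and Dicer or loaded into Argonaute is not measured by it. In the mammary gland miRNAs are studied for their part in epithelial growth and in milk fat synthesis. The predicted miRNAs carry a position and no sequence in the deposited table, so they are shown here by position, count and neighbours.

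The 477 private identifiers, those found in 1 library, held few reads. They summed to 10108 of the 3131466 predicted miRNA reads of the 8 libraries, or 0.323% (exact 95% binomial interval 0.317% to 0.329%, which covers counting error only). The 11 identifiers found in all libraries held 92.1% of the reads. The 81 found in 2 libraries held 0.201%, and those found in 7 libraries held 4.38%. The highest count of an identifier in any library had a median of 14 reads in the private set, 45.5 in those found in 2 to 7 libraries and 16301 in those found in all 8.

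**Figure D1:**
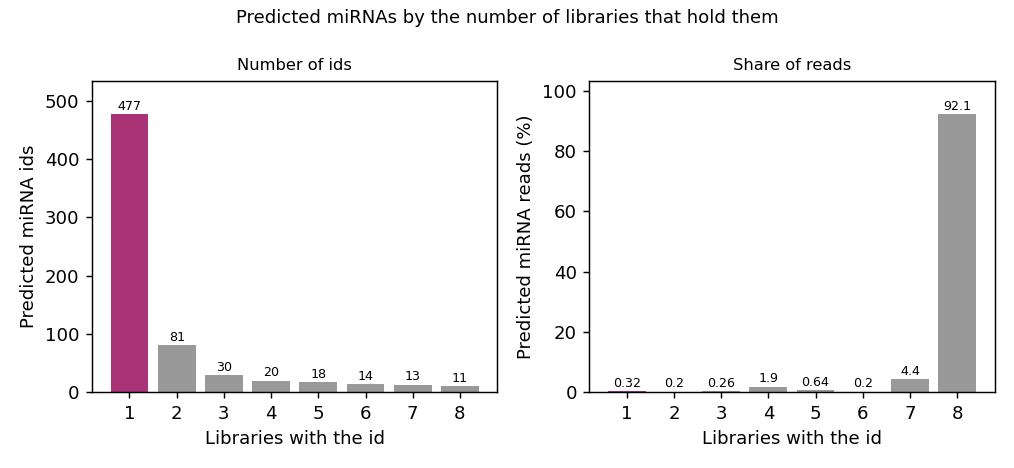
Predicted miRNAs by the number of libraries with reads: the left bars give the number of identifiers, the right bars their share of all predicted miRNA reads in percent. The first bar holds 477 identifiers and 0.323% of the reads, the last 11 identifiers and 92.1%.

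A lower limit in the table bears on every private identifier. Of the 1162 values above 0 among predicted miRNAs, 0 lay between 1 and 9 reads, and the same held for the 3545 values above 0 of predicted piRNAs (0 below 10). Known goat miRNAs had 1147 of 3836 values (29.9%) between 1 and 9. A predicted miRNA was thus listed either at 10 reads or more or at 0, and a 0 can stand for up to 9 reads or for a library in which the place was not predicted. Finding an identifier in 1 library therefore means at least 10 reads there and no listed value elsewhere, and no fold change against the other libraries can be given.

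Counts of the private set crowded towards that limit. They ran from 10 to 230 reads, with quartiles at 12 and 19, and 31 identifiers stood at exactly 10 reads. Between 10 and 14 reads lay 273 of them (57.2%), between 15 and 19 lay 94, between 20 and 49 lay 77, and 33 had at least 50. Just outside the rule, 15 of the 81 identifiers found in 2 libraries had exactly 10 reads in the lower library and 0 had 1 read there. The highest of these, taken after the counts were seen since the limit left none at 1 read, were novel_mir633 with 62 reads in the second knockdown and 10 in the first overexpression library, novel_mir221 with 59 in the first overexpression and 10 in the first 3NC library, and novel_mir404 with 49 and 10 in the first and second 5NC libraries. At 9 reads or fewer in the lower library such identifiers would have counted as private.

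The private identifiers were spread unevenly over libraries and within every group. The first overexpression library held 142 and the second 4, and the first knockdown library held 140 and the second 24. Among the controls the 3NC libraries held 5 and 66 and the 5NC libraries 26 and 70. The first overexpression and the first knockdown library together held 282 of the 477 (59.1%), and in both treated groups the partner library was far lower. The ranges of overexpression and 5NC overlapped, as did those of knockdown and 3NC.

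**Figure D2:**
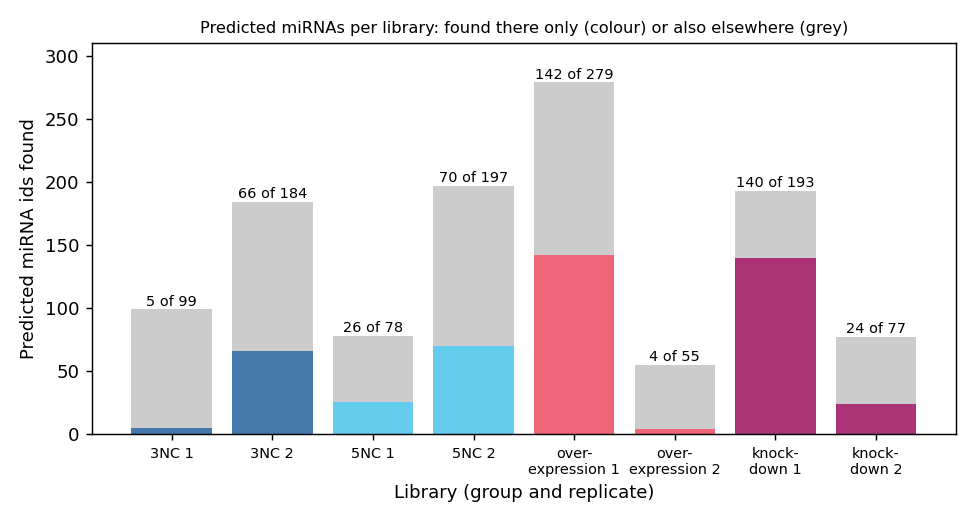
Predicted miRNA identifiers found in each library, with those found there only in colour and those also found elsewhere in grey. The labels give private and found identifiers, such as 140 of 193 in the first knockdown library and 5 of 99 in the first 3NC library.

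As a share of the identifiers found in a library, private ones made up 5.05% and 35.9% in 3NC, 33.3% and 35.5% in 5NC, 50.9% and 7.27% with overexpression, and 72.5% and 31.2% with knockdown. Identifiers shared with at least 1 other library numbered 94 and 118 in 3NC, 52 and 127 in 5NC, 137 and 51 with overexpression, and 53 and 53 with knockdown. The knockdown libraries thus had equal numbers of shared identifiers beside 140 and 24 private ones. In 3NC, in 5NC and with overexpression, shared and private numbers were higher in the same library. The first knockdown library thus had the highest private share of the 8 libraries and the first 3NC library the lowest.

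In reads the first knockdown library stood alone. Its 140 private identifiers held 4240 reads, 41.9% of all private reads and 18.6% of the predicted miRNA reads of that library (exact 95% binomial interval 18.1% to 19.1%). The second knockdown library had 569 private reads, 2.41% of its predicted miRNA reads (2.21% to 2.61%). Both lay above the 3NC libraries, with 155 reads (0.0628%) and 891 reads (0.124%). The knockdown libraries held 22838 and 23646 predicted miRNA reads against 246995 and 719120 in 3NC, so the denominators differed by over 10 times. Per 1000000 of all reads of the library, private identifiers took 643.6 and 17.7 reads with knockdown and 19.2 and 68.1 in 3NC, so that on this scale the groups overlapped and only the first knockdown library was high.

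With overexpression the private identifiers held 2043 reads in the first library, 0.500% of its predicted miRNA reads (0.479% to 0.522%), and 70 reads in the second, 0.0592% (0.0461% to 0.0748%). The 5NC libraries had 1024 reads, 0.104%, and 1116 reads, 0.183%, which lie between the overexpression libraries. Per 1000000 of all reads the values were 164 and 10.2 with overexpression and 65.1 and 89.9 in 5NC. The groups overlapped on both scales.

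The order of the libraries by total reads differed from their order by private identifiers, and the part of depth in these numbers was not tested. The deepest library, the second knockdown with 32066029 reads, had 24 and the shallowest, the first knockdown with 6588354 reads, had 140. Between them the 5NC libraries with 15729279 and 12413546 reads had 26 and 70, the second 3NC library with 13080581 reads had 66, and the first overexpression library with 12459225 reads had 142. The fewest, 5 and 4, came from libraries of 8084584 reads (the first of 3NC) and 6889730 reads (the second of overexpression). By predicted miRNA reads the library with the most, the first 5NC with 982523, had 26 private identifiers.

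Thinned to one depth, the first knockdown library was highest, where as deposited it stood 2 below the first overexpression library. Both depths were those of the first knockdown library, so its own counts were left whole while those of the other libraries were reduced. At 6588354 total reads each, with at least 10 reads needed, the expected number of private identifiers was 152.7 in the first knockdown library, 38.1 in the first overexpression library, 18.7 and 18.1 in the second and the first 5NC library, and 10.02 or fewer in the remaining 4. At 22838 predicted miRNA reads each, counting any read, it was 144.4 in the first knockdown and 92.3 in the first overexpression library, with 35.7 in the second 5NC, 30.2 in the second knockdown and 27.4 in the second 3NC library. With at least 10 reads needed at that depth, it was 157 in the first and 41.3 in the second knockdown library, 3.47 in the first overexpression library, 2.58 in the first 5NC library, 0.109 in the second and under 1 in the remaining 3. The first overexpression library thus lay below the first knockdown library in all 3 settings, and the order of the others depended on the setting. Where at least 10 reads were needed, the first knockdown library kept all 193 of its identifiers while the others could only lose some. Its first rank there is thus in part built into the method. The thinned counts start from values that already lack 1 to 9 reads.

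**Figure D3:**
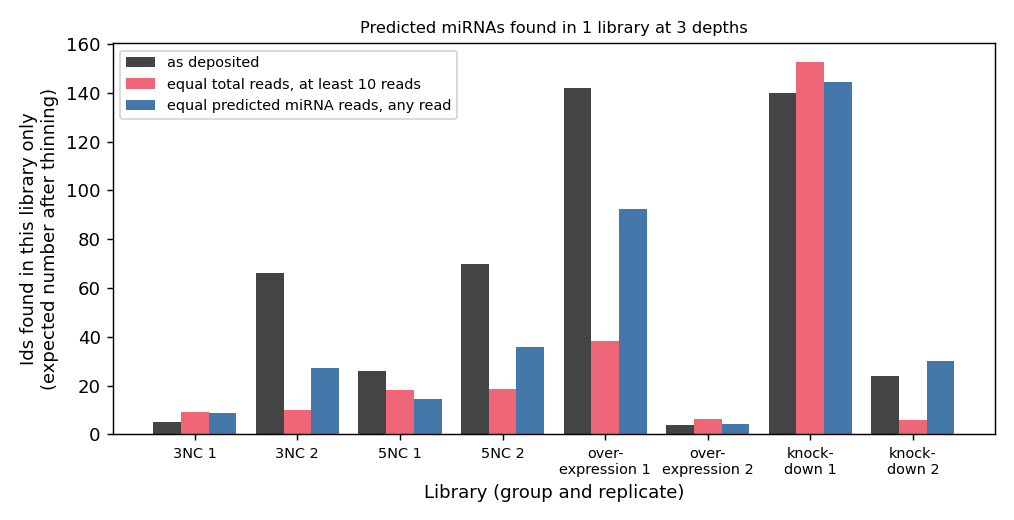
Private identifiers per library as deposited, and the number expected when all libraries are thinned to the same total reads (at least 10 reads needed) or to the same predicted miRNA reads (any read). The first knockdown library holds 140, 152.7 and 144.4, the first overexpression library 142, 38.1 and 92.3. Both depths are those of the first knockdown library, which is not itself reduced.

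Other measures also set libraries apart. In the first knockdown library ribosomal RNA took 27.3% of the reads, against 1.14% to 5.21% in the other 7, and in the second predicted piRNAs took 43.9%, against at most 0.545%. MiRNAs, known and predicted, took 2.69% and 0.382% of reads with knockdown, 39.5% and 5.80% with overexpression, and 20.3% to 32.04% in the controls. Marker lists also differed between libraries. Endothelial miR-126, 1 of 1 listed, stood at 20590 and 33620 reads per 1000000 known miRNA reads with knockdown and 285.1 and 10630 with overexpression, against 201.1 to 637.3 in the controls. The blood list, 4 of 6 in the table, stood at 12330 and 18350 with knockdown, 1177 and 12870 with overexpression and 735.1 to 2540 in the controls, with miR-144 at 0 in the first 3NC and the first 5NC library. Epithelial markers, 5 of 6 in the table, were high in the same 3 libraries, at 2665 and 2136 with knockdown and 909.4 in the second overexpression library against 36.8 to 121 in the other 5, with miR-200a at 0 in the first overexpression and miR-141 at 0 in the second 3NC library. Those 3 libraries had 140, 24 and 4 private identifiers. The mesenchymal list, 4 of 4 in the table, stood at 112600 and 60300 with knockdown, 24370 and 18650 with overexpression, 21340 and 30540 in 3NC and 492.8 and 7438 in 5NC. The muscle list, 4 of 4, stood at 821.4 and 66740 with knockdown, 140.2 and 5936 with overexpression, 170.8 and 2848 in 3NC and 161.9 and 1186 in 5NC. As sums these 2 lists did not single out the same 3 libraries, but mesenchymal members differed. In reads, miR-143 had 8514 and 1088 with knockdown, 52570 and 2199 with overexpression and 1206 to 40101 in the controls. For miR-145 the reads were 3499 and 3057, 1479 and 1585, and 67 to 1693. These reads are not scaled. MiRNA reads were 177449 and 122435 with knockdown, 399780 in the second overexpression library and 1734531 or more in the others. Relative to them, miR-145 was highest in the knockdown libraries and the second overexpression library. The same did not hold for miR-143. Liver miR-122, 1 of 1, stood at 2859 and 31040 with knockdown, 81.3 and 3897 with overexpression, 82.0 and 2278 in 3NC and 19.97 and 21.8 in 5NC. The neural list, 2 of 3, stood at 2050 and 8635 with knockdown, 1169 and 1776 with overexpression and 660.9 to 1291 in the controls. MiR-122 and the neural list as a sum were thus highest in the knockdown libraries and the second overexpression library, but the neural members differed. Unscaled, miR-9 had 32 and 299 reads with knockdown, 4406 and 116 with overexpression and 695 to 1713 in the controls. For miR-129 the reads were 285 and 554, 869 and 384, and 968 to 1374. The part of any of these in the number of private identifiers was not tested.

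Among the members themselves, the highest counts came from a few libraries. Each value below is the count in the named library, with 0 listed in the other 7. The highest was novel_mir379, on the minus strand of sequence NC_030810.1 from 11099342 to 11099398, with 230 reads in the first 5NC library. In the same library novel_mir65 (NW_017196847.1, minus strand, 4658 to 4722) had 129 reads and novel_mir630 (NC_030817.1, plus strand, 31966920 to 31966972) had 115. These 3 made up 46.3% of the private reads of that library, whose 26 private identifiers had a median of 17.5 reads. In the second 5NC library novel_mir545 (NC_030826.1, plus strand, 57067404 to 57067463) had 137 reads, while the next, novel_mir530 and novel_mir538, had 37 and 29.

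The 3NC libraries showed 1 identifier apart from a low remainder. In the first, novel_mir642 (NC_030820.1, plus strand, 76622501 to 76622538) had 102 reads, 65.8% of the private reads there, and the next were novel_mir769 with 15 and novel_mir252 with 14. In the second, novel_mir700 had 44 reads, and novel_mir69 and novel_mir97 had 24 each, out of 66 identifiers with a median of 12 reads. The second 3NC library thus had more private identifiers than its partner but none above 44 reads.

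With overexpression the first library had many identifiers and no high one. Its leading members were novel_mir556 (NC_030811.1, plus strand, 18085910 to 18085963) with 52 reads, novel_mir451 with 51 and novel_mir204 with 42. Of its 142 identifiers 105 had 10 to 14 reads and 9 had at least 20. The second overexpression library had 4, led by novel_mir684 (NC_030830.1, minus strand, 528923 to 528983) with 35 reads, then novel_mir41 and novel_mir595 with 12 each.

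The first knockdown library had both many identifiers and high ones. Its leading members were novel_mir313 (NC_030814.1, minus strand, 90506212 to 90506288) with 169 reads, novel_mir746 (NC_030822.1, plus strand, 39994774 to 39994821) with 156 and novel_mir458 (NC_030828.1, plus strand, 26266061 to 26266141) with 122. Its median of 19 reads was the highest of the 8 libraries, 68 of its 140 identifiers had at least 20 reads, and it held 21 of the 33 private identifiers with at least 50. No single member carried it, since novel_mir313 made up 3.99% and the leading 3 together 10.5% of its private reads. The second knockdown library was led by novel_mir613 (NC_030834.1, plus strand, 9580589 to 9580626) with 80 reads, novel_mir120 with 74 and novel_mir729 with 52, together 36.2% of its private reads.

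**Figure D4:**
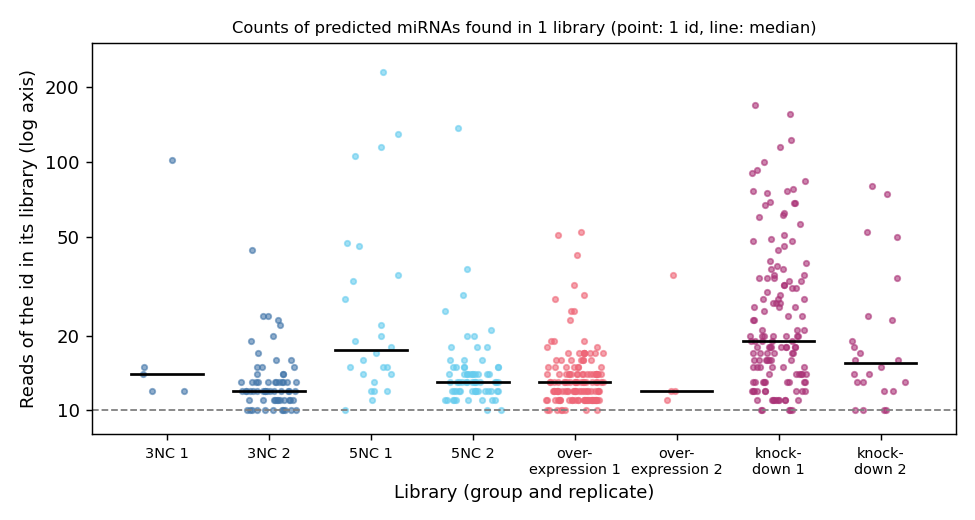
Reads of each private identifier in its library on a log axis, with 1 point per identifier, the median as a black line and the lower limit of 10 reads dashed. Medians lie between 12 and 19 reads, and the first knockdown library holds most points above 50.

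Scaled to the miRNA reads of the library, the order changed. Per 1000000 known and predicted miRNA reads, the 10 highest private identifiers were 8 of the first and 2 of the second knockdown library. Novel_mir313 stood at 952.4, novel_mir746 at 879.1, novel_mir458 at 687.5, novel_mir613 at 653.4, novel_mir546 at 648.1 and novel_mir120 at 604.4 reads on this scale, followed by novel_mir268 (563.5), novel_mir465 (524.1), novel_mir170 (507.2) and novel_mir364 (473.4). The identifier with the most reads, novel_mir379, stood at 45.6. A count of 10 reads was already worth 56.4 and 81.7 per 1000000 miRNA reads in the knockdown libraries and 1.98 in the first 5NC library.

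Whether the other libraries were deep enough to show an identifier depended on the member. For each one its share of the library's reads was carried over to the other 7 libraries. That share comes from the count that made the identifier private, so it may be too high, and it carries no interval. Reaching 10 reads by it does not show that the RNA was absent elsewhere. By total reads 185 of the 477 (38.8%) would have reached 10 reads in all 7 others, 264 (55.3%) in the partner library of the same group, and 17 in none. By miRNA reads the numbers were 126, 227 and 1. The 17 all belonged to the second knockdown library, the deepest. By total reads the remaining identifiers would have reached 10 reads in some or all of the other libraries.

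The split differed by library. All 140 identifiers of the first knockdown library would have reached at least 20 reads in its partner by total reads. The first is the shallowest library and the second the deepest, with 43.9% of its reads in predicted piRNAs. By miRNA reads 101 would have reached 10 reads there and 44 would have reached 20. All 70 of the second 5NC library would have reached 10 reads in the first by either measure. In contrast 12 of the 142 of the first overexpression library would have reached 10 reads in its partner by total reads and 0 by miRNA reads. For novel_mir379 the same share of total reads would have given 181.5 reads in the second 5NC library and at least 96.3 in each other library, where 0 was listed. For novel_mir545 it would have given 173.6 reads in the first 5NC library and for novel_mir642 165 in the second 3NC library.

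With reads in 1 library and groups of 2, no private identifier can pass a filter that asks for reads in 2 libraries, so none was tested. The edgeR filter, with a minimum count of 10, kept 402 of 1025 known and predicted miRNAs, 133 of them predicted, and by the rule's construction 0 of the private ones. Counted by group instead, 493 identifiers had reads in 1 group only: 75 in 3NC, 101 in 5NC, 147 with overexpression and 170 with knockdown. Allowing the partner library thus added 16 identifiers.

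Those 16 were the identifiers found in exactly 2 libraries of the same group, out of 81 found in 2 libraries (19.8%), while 4 of the 28 possible pairs of libraries are of the same group. The knockdown libraries shared 6, the 5NC libraries 5, the 3NC libraries 4 and the overexpression libraries 1. More were shared across groups: 15 by the second 3NC and the first overexpression library, 11 by the second 5NC and the first overexpression library, and 10 by the second 3NC and the second 5NC library. These 3 libraries all had many identifiers. The first knockdown library, with 140 private identifiers, shared 14 identifiers with exactly 1 other library, fewer than the 31 of the second 3NC, the 32 of the second 5NC and the 40 of the first overexpression library.

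**Figure D5:**
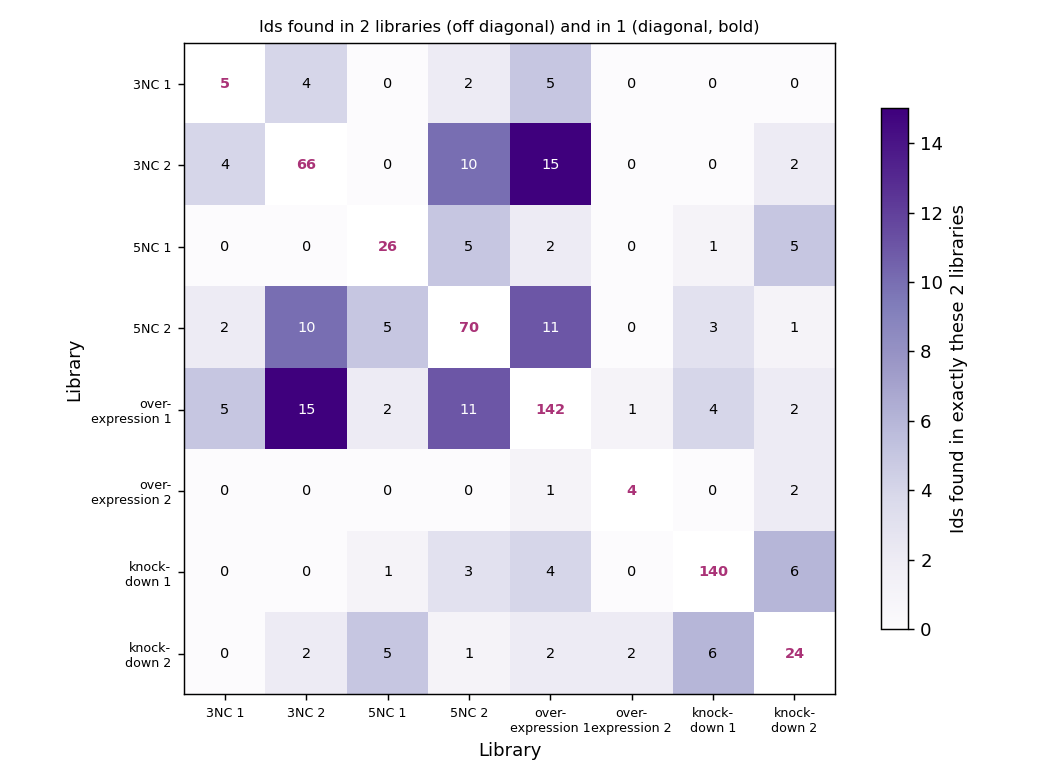
Identifiers found in exactly 2 libraries (off the diagonal, counts in the cells and as colour) and private identifiers (on the diagonal, bold). The highest pair counts, 15, 11 and 10, join the second 3NC, the second 5NC and the first overexpression library, and the knockdown libraries share 6.

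The same rule gave other shares in other classes of small RNA. Of 361 known goat miRNA names 37 (10.2%) had reads in exactly 1 library, and with the limit of 10 reads applied to them 33 of 285 (11.6%). Of 437 Rfam families with at least 10 reads 101 (23.1%) were found in 1 library, and of 2888 predicted piRNAs 2619 (90.7%). Predicted miRNAs, at 71.8%, thus lay between the annotated classes and the other predicted class. By library the predicted piRNAs followed another order: 1598 of those found in 1 library belonged to the second knockdown library, 535 to the first and 187 to the first overexpression library. The second knockdown library was therefore high in private piRNAs and, with 24, not in private miRNAs. Counting any read, known names found in 1 library numbered 1 and 7 with knockdown and 5 and 1 with overexpression, against 1 to 10 in the controls. With at least 10 reads needed they numbered 1 and 1 with knockdown, 12 and 0 with overexpression and 1 to 15 in the controls.

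Length, strand and position were not used by the rule, and differences in them were not tested. Counting both ends, the predicted places spanned 36 to 93 bases with a median of 62 in the private set, and 35 to 100 bases with a median of 61 in the other 187. Places under 50 bases numbered 74 (15.5%) against 14 (7.49%), and 0 among the 11 found in all libraries. Of the private places 247 lay on the plus and 230 on the minus strand. By library the median span ran from 49.5 bases in the second overexpression library, with 4 places, to 65 in the second 5NC library. Short places numbered 26 of 140 in the first knockdown library and 6 of 70 in the second 5NC library.

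Private places were spread over the genome. All 29 sequences named with the prefix NC, which RefSeq gives to complete molecules such as chromosomes, held at least 2 and at most 33, with NC_030825.1 holding 33 of its 44 predicted miRNAs as private and NC_030818.1 holding 31 of 40. On sequences with the prefix NW, which marks contigs and scaffolds, lay 27 private places (5.66%) and 19 of the other 187 (10.2%). No genome build is named with the table, so genes at these places were not analysed here. The number in an identifier also did not mark its library: private identifiers ran from 39 to 802 with a median of 453, and the medians by library ran from 273 in the first 5NC to 508.5 in the first knockdown library. Identifiers found in all 8 libraries had a median number of 10.

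Some private places lay near each other. Within 10000 bases of another predicted miRNA lay 49 of the 477 (10.3%) and 19 of the other 187 (10.2%), and 17 private places had a neighbour within 1000 bases. Both neighbours were private in 22 pairs, and in 20 of these they belonged to different libraries. The closest were novel_mir791 and novel_mir225 on NW_017190074.1, both on the minus strand at 125011 to 125067 and 125128 to 125176 with 60 bases between them. The first had 12 reads in the second 5NC library and the second 34 in the first knockdown library. On the plus strand of the same scaffold, 228 bases before novel_mir791, novel_mir738 had 14 reads in the first overexpression library. Here 3 private identifiers of 3 groups stood between 124703 and 125176, on both strands and without overlap. The 2 pairs from one library were novel_mir49 and novel_mir655, with 11 reads each, and novel_mir351 and novel_mir522, with 28 and 12, all in the first overexpression library.

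Private places also lay near more widely found ones, as 12 had a neighbour within 10000 bases that was found in at least 2 libraries. On NC_030810.1 novel_mir732, with 12 reads in the second 3NC library, and novel_mir590, with 67 in the first knockdown library, lay on the same strand as novel_mir164, at 8071 and 5669 bases from it. Novel_mir164 had 1682 to 90907 reads in each of the 8 libraries. On NC_030813.1 novel_mir417 (89602006 to 89602068), with 13 reads in the second 5NC library, overlapped novel_mir274 (89602057 to 89602124) on the plus strand by 12 bases, the 1 overlap among all predicted miRNAs. Novel_mir274 had 77 reads in that library and 60, 60 and 78 in the 3NC and the first overexpression libraries, where novel_mir417 was listed at 0. A private identifier could thus adjoin a place that was read in several libraries.

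Overlap with the intervals listed for predicted piRNAs was rare, at 2 of the 477 private and 2 of the other 187 places. An interval can hold several piRNAs, such as 67878405 to 67878808 for the 3 listed over novel_mir290. Overlap with a piRNA itself is therefore not shown. Both private ones belonged to the first 5NC library. Novel_mir290, with 35 reads, lay opposite a DNA transposon of the TcMar-Tigger type that held 3 predicted piRNAs. Novel_mir75, with 15 reads, lay within the interval of a predicted piRNA in a LINE of the L2 type, on the same strand. For both, all of the piRNAs listed at these intervals had reads in the first 5NC library as well. Of those listed over novel_mir290, novel_pir2260 and novel_pir2262 also had 12 and 10 reads in the second 5NC library.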

How the data were processed

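Small RNA was sequenced in 8 libraries, 2 in each of 4 groups taken from the treatment labels. For 5093 features the authors deposited raw read counts, per the file headers, and these were used unchanged. The TPM columns, also named so per the file headers, matched each count over its column total times 1000000, without a length term, to within 0.0141% at 1000 reads or more. They hold 0.001 where the count is 0 and served for this check only. The aligner, the prediction tool, the build and the handling of reads that match several places are not given in the labels or headers.

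Totals per library ran from 6588354 to 32066029 reads, which include 4 summed classes without a feature name (44.3% to 63.05% of reads). MiRNA reads are known plus predicted. Mature and hairpin rows of a known name were summed, which may count a read more than once. Coordinates are printed as the table gives them. Intervals are exact binomial ones at 95% and cover counting error only, since PCR copies were not marked by molecular identifiers. Thinning used the hypergeometric expectation, tested on simulated data. Python 3.11.15, scipy 1.17.1, R 4.3.3 and edgeR 4.0.16 (filterByExpr alone) were used.

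The members, lists and alternatives were chosen with earlier results of these data known. Named identifiers are the 3 highest counts per library, the 10 highest per 1000000 miRNA reads, and up to 5 just outside the rule. No test was run, because the rule used these counts and exact permutation of 2 libraries against 2 could not fall below a p of 0.05.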

Additional observations from a re-analysis of the deposited data

How the results depend on the processing

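The number of private identifiers stayed at 477 when 2, 3, 5 or 10 reads were needed, because no value lies below 10. With the rule reapplied at limits of 15, 20, 30 and 50 reads, added after the data were seen, 247, 162, 105 and 61 were private. These include identifiers outside the 477 whose counts in other libraries fell below the limit. Of the 477 themselves, 110 had at least 20 reads and 33 at least 50. At equal depth the expected number was 357.6 (equal predicted miRNA reads, any read), 206.2 (the same with at least 10 reads, added) and 259.01 (equal total reads with at least 10 reads, added). By group in place of library it was 493. Leaving out 1 library gave 351 to 483 private identifiers among the remaining 7, and a private share of predicted miRNA reads of 0.199% to 0.483% against 0.323%. The lowest of both came without the first knockdown library, which moved the share by over 1.5 times. Without that and the first overexpression library together, also added, 243 identifiers and 0.174% remained, 195 of them private over all 8 libraries as well. Of all miRNA reads the private set held 0.0562%, and of all named features 0.0210%, which follows from the larger denominators. The table has no separate hairpin and mature rows for predicted miRNAs, so that alternative was not run. No paired analysis was possible because the results come from no test. Depth limits what a listed 0 says, since counts of 1 to 9 are absent.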
